A study of Homo sapiens with 6 samples.

Results

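The genes described here are the inorganic ion exchangers and cotransporters of 8 solute carrier (SLC) families, measured by RNA-Seq in C4-2B parental and C4-2B enzalutamide resistant prostate cancer cells. They were chosen by gene symbol alone, as the members of SLC4, SLC8, SLC9, SLC12, SLC20, SLC24, SLC26 and SLC34, and 52 of the 58024 genes in the table met this rule. The rule used no expression value, but it was set with earlier results of these data known. C4-2B (C42-B in the sample labels) is a castration-resistant human prostate cancer line derived from LNCaP by way of xenografts in castrated mice. The resistant cells (C42-B-ENZU) were selected by passage in 1 to 20 µM enzalutamide, an antiandrogen drug, and were then kept in 5 µM. Surviving cells were pooled, so the resistant group is one selected population, and the parental cells were passaged beside them in the vehicle, 1% dimethyl sulfoxide by the labels and a lower concentration by the study's methods. Both were grown in RPMI medium with fetal bovine serum. The RNA protocol states an exposure to 10 µM enzalutamide and names parental and resistant cells in the same phrase, so whether the parental cells received it cannot be told. Each group had 3 libraries, numbered 0, 1 and 2. The labels do not say whether these came from separate cultures, so p values measure the spread between libraries, which may be technical.

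These carriers move inorganic ions across membranes by coupling one ion to another. Most SLC4 and many SLC26 proteins carry bicarbonate or chloride, SLC9 proteins exchange sodium for protons, SLC12 proteins carry chloride together with potassium or sodium, SLC8 and SLC24 proteins export calcium in exchange for sodium, and SLC20 and SLC34 proteins take up phosphate with sodium. Together they set cell pH, volume, chloride and calcium, and in the prostate they serve an epithelium that secretes a citrate-rich fluid.

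To show where expression of the carriers starts, the promoters of 4 carriers are given here, a pair that was higher in the resistant cells and a pair that was lower. They are the carriers, among the 6 largest increases and the 6 largest decreases described further on, whose RefSeq start lies within 4 bases of the start of the GENCODE v44 gene model. Each is the 250 bases before the RefSeq start on GRCh38.p14, written 5′ to 3′ on the strand of the gene, and capitals mark matches to the motifs searched. The promoter of SLC8A2 (chr19:47471894-47472143, minus strand) held one match, the left arm of the REST element on the other strand, 239 bases before the start.
SLC8A2: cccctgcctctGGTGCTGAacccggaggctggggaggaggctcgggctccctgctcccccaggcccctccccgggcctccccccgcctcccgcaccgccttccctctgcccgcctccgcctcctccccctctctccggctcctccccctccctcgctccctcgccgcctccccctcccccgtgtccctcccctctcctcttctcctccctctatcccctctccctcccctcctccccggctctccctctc
The promoter of SLC12A5 (chr20:46021436-46021685, plus strand) held 3 overlapping GC boxes between 34 and 26 bases before the start.
SLC12A5: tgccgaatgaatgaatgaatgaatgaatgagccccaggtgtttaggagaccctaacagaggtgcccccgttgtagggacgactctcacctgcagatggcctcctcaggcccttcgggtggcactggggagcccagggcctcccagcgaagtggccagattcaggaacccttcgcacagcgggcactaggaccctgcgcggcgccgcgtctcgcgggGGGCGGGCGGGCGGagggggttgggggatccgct
The promoter of SLC9A2 (chr2:102619303-102619552, plus strand) held 4 GC boxes on the other strand, the first of them 52 bases before the start.
SLC9A2: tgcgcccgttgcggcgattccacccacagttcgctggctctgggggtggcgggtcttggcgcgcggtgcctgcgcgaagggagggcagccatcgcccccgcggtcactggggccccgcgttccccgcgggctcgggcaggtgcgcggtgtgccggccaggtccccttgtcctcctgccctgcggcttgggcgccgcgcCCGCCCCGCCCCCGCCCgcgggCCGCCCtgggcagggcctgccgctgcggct
The promoter of SLC34A3 (chr9:137230507-137230756, plus strand) held 1 GC box on the other strand, 105 bases before the start.
SLC34A3: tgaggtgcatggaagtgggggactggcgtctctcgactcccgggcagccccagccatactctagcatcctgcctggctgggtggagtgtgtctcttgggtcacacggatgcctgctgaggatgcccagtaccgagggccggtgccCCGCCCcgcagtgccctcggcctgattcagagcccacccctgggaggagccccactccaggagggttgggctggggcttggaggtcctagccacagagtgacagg

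A RefSeq promoter was matched for 41 of the 52 carriers. Their median GC content was 62.8%, against 58% over 35116 promoters of all genes. The GC box (GGGCGG), a site bound by SP1, was found in 16 of the 41, which is 39.0%, against 42.6% of all promoters. The left arm of the REST element (TCAGCACC), part of the site of a repressor of neuronal genes, was found in 2 of the 41, SLC8A2 and SLC34A1, and in 1.32% of all promoters. The right arm (GGACAGC) was found in 2 of the 41, SLC4A8 and SLC20A1, and in 4.76% of all promoters. The TATA box (TATAAA) was found in 14.6% against 10.7%, and the cyclic AMP response element (TGACGTCA) in 0 of the 41 against 1.65%. Both strands were searched for each motif. Among carriers higher in the resistant cells 3 of 10 matched promoters held a GC box, and among carriers lower in the resistant cells 7 of 13 did. These are matches of letters and no measure of binding.

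Levels are given in FPKM, the fragments of a gene divided by the length of its transcript and by the mapped fragments of the library, so that levels of different genes can be set side by side. The libraries summed to 792975 to 870110 FPKM, and the depth estimated from the value that a single read leaves was 12800000 to 18800000 reads in parental and 13600000 to 16200000 reads in resistant libraries, with fragments of 200 bases assumed. At that depth a value of 0.0111 to 0.0163 FPKM on a gene of 5000 bases stands for 1 read. The table gives no counts, and a value of 0 was read as listed at 0. RMRP, a short non-coding RNA, took 18.4% to 21.5% of the summed FPKM in the parental and 11.4% to 12.6% in the resistant libraries, and RPPH1, another, took 0% and 10.7% to 11.6%. Rescaling without short non-coding RNA left the same 27 carriers called, with no change of direction. The prostate identity of the cells was checked on 10 luminal genes, which summed to 4227 to 5004 FPKM in parental and 1234 to 1320 FPKM in resistant libraries. Of these 10, 7 were lower and 2 were higher in the resistant cells. KLK3, which encodes PSA, averaged 2556 and 44.04 FPKM. Neuroendocrine genes summed to 7.07 to 11.3 FPKM in parental and 189 to 211 FPKM in resistant libraries, with 4 of 5 tested genes higher, mostly ENO2, SYP and CHGB, while INSM1 stayed under 0.1 FPKM on average in both groups. Of the genes called higher, CHGA and CHGB averaged under 0.1 FPKM in the parental cells and were tested only through the resistant libraries. Mesenchymal genes summed to 228 to 264 and 45.1 to 60.3 FPKM, with 2 of 3 tested genes lower, VIM and FN1. The basal, blood and endothelial lists, of 3, 3 and 2 genes, summed to at most 1.14 FPKM in any library. KRT14 of the basal list and VWF of the endothelial list were lower in the resistant cells, and CD68 of the blood list did not pass the test. The cells therefore differed in lineage genes as well, and the part of that difference in the carrier values was not tested.

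Of the 52 carriers, 36 averaged 0.1 FPKM or more over all 6 libraries and were tested with limma on log2(FPKM + 0.1), with Benjamini-Hochberg adjustment over all 24468 genes tested. Of these 36, 13 were upregulated in the resistant cells, 14 were downregulated and 9 did not pass the test. That is 75% called, where 44.4% of all genes tested and 55.7% of protein-coding genes tested were called. The upregulated share was 36.1% against 22.1% of all genes, and the downregulated share was 38.9% against 22.3%. A change of at least 2-fold was called for 21 carriers, 58.3% of those tested, against 28.5% of all genes. Of these, 11 were higher and 10 lower, where 15% and 13.6% of all genes were. The 3 resistant values lay entirely above or entirely below the 3 parental values in 27 of the 36, which is 75%, against 54.8% of all genes tested. The median log2 difference was -0.26 over the carriers tested and -0.05 over all genes tested. In bulk RNA, fewer cells that express a gene and less RNA per cell cannot be told apart. A parental mean under 0.1 FPKM was found in 5 tested carriers, which entered the test only through the resistant libraries: SLC4A5, SLC8A1, SLC8A2, SLC12A5 and SLC26A10. All 5 were called higher, so the upregulated and 2-fold shares of the carriers rest in part on this filter. Of the other 31, 22 were called (71.0%), 8 higher and 14 lower, with a median log2 difference of -0.60.

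**Figure D1:**
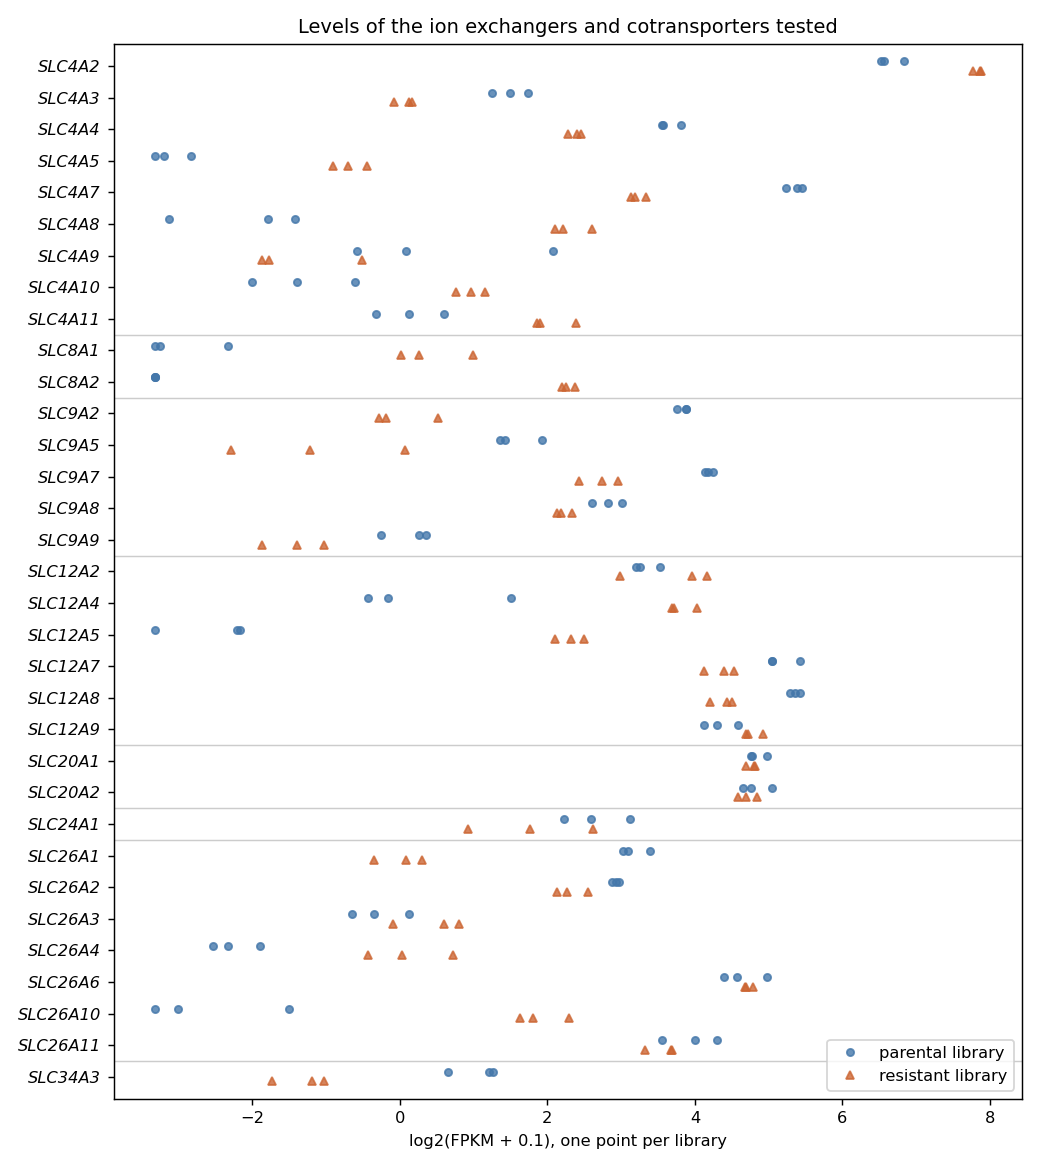
Level of 33 of the 36 tested carriers in each library, as log2(FPKM + 0.1), grouped by family with grey lines between families; circles are the 3 parental and triangles the 3 resistant libraries. SLC4A2 was the highest carrier in every library, and the 2 SLC20 carriers overlapped between the groups.

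The summed level of all 52 carriers was 470 ± 27.3 FPKM (SD, n = 3) in the parental and 522 ± 11.2 FPKM (SD, n = 3) in the resistant cells. Its make-up differed more than its size. SLC4 carriers summed to 147, 155 and 176 FPKM in parental and to 244, 261 and 262 FPKM in resistant libraries. SLC9 carriers summed to 66.7, 71.4 and 76.1 FPKM in parental and to 46.3, 42.7 and 50.3 FPKM in resistant libraries. Neither family overlapped between the groups, and they lay apart in opposite directions. SLC12 carriers summed to 116 ± 10.1 and 106 ± 2.12 FPKM and SLC20 carriers to 56.9 ± 4.23 and 53.2 ± 3.48 FPKM (SD, n = 3 for each), and both overlapped between the groups. SLC26 carriers summed to 53.9, 53.8 and 67.8 FPKM in parental and to 49.8, 49.9 and 50.6 FPKM in resistant libraries, lower without overlap. SLC8, SLC24 and SLC34 carriers each summed to under 10 FPKM in every library. SLC4A2 alone held 21.3% of the summed carrier level in the parental and 43.8% in the resistant cells. Within the SLC4 sum its share was 62.7% and 89.4%, so the higher SLC4 sum came from SLC4A2.

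**Figure D2:**
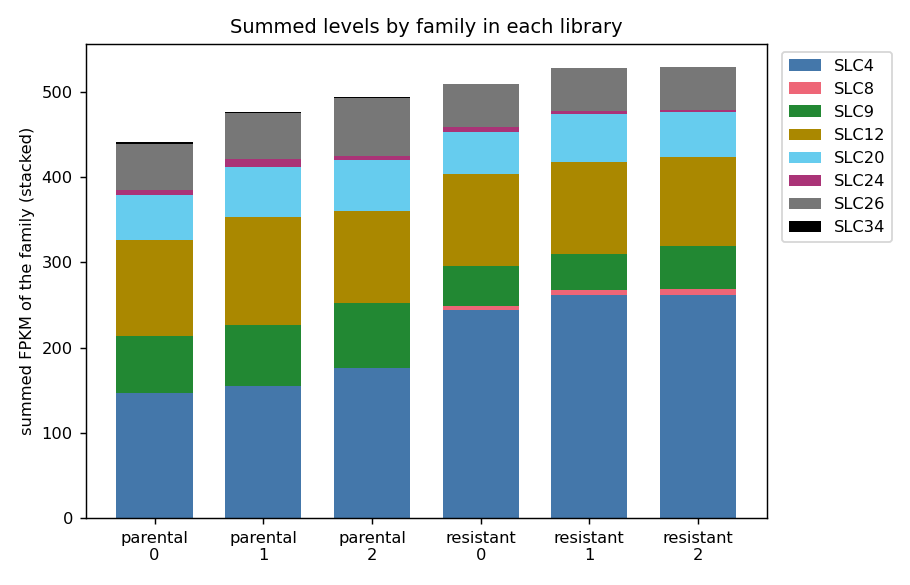
Summed FPKM of each family, stacked, in each of the 6 libraries. The SLC4 segment reached 147 to 176 FPKM in the parental and 244 to 262 FPKM in resistant libraries, and the SLC9 segment was 66.7 to 76.1 and 42.7 to 50.3 FPKM.

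Of the SLC4 carriers, 9 of 10 were tested, 5 were upregulated, 3 were downregulated and SLC4A9 did not pass the test. The called share was 88.9%, against 44.4% of all genes and 55.7% of protein-coding genes. SLC4A2, which exchanges chloride for bicarbonate without sodium and is found in most cells (chr7:151057210-151076526, GRCh38), stood at 94.1, 92.2 and 114 FPKM in the parental and at 217, 233 and 235 FPKM in resistant libraries. The lowest resistant value was above the highest parental value. Its log2 difference was 1.20 ± 0.10 (SE, limma, Benjamini-Hochberg adjusted p = 0.000197). The sodium-coupled carriers of the same family that were most abundant in the parental cells were lower. SLC4A7, an electroneutral sodium bicarbonate cotransporter (chr3:27372721-27484420), stood at 37.5, 41.6 and 43.6 FPKM in the parental and at 8.66, 9.97 and 8.97 FPKM in resistant libraries, without overlap. It was downregulated with a log2 difference of -2.14 ± 0.10 (SE, limma, adjusted p = 2.91e-05). SLC4A4, the electrogenic sodium bicarbonate cotransporter, averaged 12.4 FPKM in the parental and 5.10 FPKM in the resistant cells and was downregulated (log2 difference -1.27, limma, adjusted p = 0.000493). SLC4A3, a chloride bicarbonate exchanger known from heart and brain, averaged 2.74 and 0.950 FPKM and was downregulated as well (log2 difference -1.42, limma, adjusted p = 0.00382).

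SLC4A8, which exchanges chloride for bicarbonate with the help of sodium and is known from neurons (chr12:51391317-51515763), was listed at 0.0139, 0.275 and 0.188 FPKM in parental libraries and at 5.99, 4.54 and 4.18 FPKM in resistant libraries. All resistant values were far above the parental ones. Its log2 difference was 4.42 ± 0.50 (SE, limma, adjusted p = 0.000702), and 2.34 and 5.46 with pseudocounts of 1 and 0.01 FPKM in place of 0.1, since the size of a difference between values this low depends on the pseudocount. SLC4A10, another sodium-coupled bicarbonate carrier of neurons, averaged 0.329 and 1.86 FPKM and was upregulated (log2 difference 2.30, limma, adjusted p = 0.00577). SLC4A11, known from the corneal endothelium, averaged 1.04 and 4.10 FPKM and was upregulated (log2 difference 1.91, limma, adjusted p = 0.00325). SLC4A5, an electrogenic sodium bicarbonate cotransporter, averaged 0.0166 and 0.525 FPKM and was called higher (limma, adjusted p = 0.00383), with 47.5% of its exonic bases shared with another gene on the same strand and 16.5% with MTHFD2 on the opposite strand, which stood at 103 to 105 FPKM in parental and 159 to 185 FPKM in resistant libraries. SLC4A9, a carrier of the kidney, stood at 0.571, 4.11 and 0.962 FPKM in the parental and at 0.174, 0.193 and 0.601 FPKM in resistant libraries, and the groups overlapped (log2 difference -1.91, limma, adjusted p = 0.0910). With a pseudocount of 1 FPKM the log2 difference was -0.93 for SLC4A3, 0.58 for SLC4A5 and 1.11 for SLC4A10, each still past the test. The first of the family, SLC4A1 of red blood cells, was not tested and was listed at 0 in all parental libraries and at no more than 0.287 FPKM in resistant libraries.

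The balance of SLC4A2 with the abundant sodium-coupled carriers was compared as a ratio within each library, which does not depend on how the libraries were scaled. The ratio of SLC4A2 to the sum of SLC4A4 and SLC4A7 was 1.92, 1.73 and 1.98 in the parental and 16.2, 15.4 and 16.4 in the resistant libraries. This is an 8.54-fold higher ratio in the resistant cells, with no overlap, and the exact two-sided permutation test gave p = 0.1 (0.2 after adjustment over the 4 ratios tested), which is the smallest p that 3 against 3 libraries can give.

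Among the SLC8 carriers, which remove calcium from the cell in exchange for sodium, 2 of 3 were tested and both were upregulated. Both passed the filter on low values only through the resistant libraries. The direction of these calls was thus largely fixed by the filter, and the count is no result about the family. SLC8A2, the exchanger known from brain (chr19:47428017-47471893), was listed at 0 FPKM in all 3 parental libraries and stood at 4.68, 4.49 and 5.07 FPKM in resistant libraries. It passed the test (limma, adjusted p = 3.87e-05), and no fold is given against a group listed at 0. SLC8A1, the exchanger known best from heart muscle (chr2:40097270-40611053), was listed at 0.00544, 0.0992 and 0 FPKM in parental libraries and at 0.913, 1.10 and 1.88 FPKM in resistant libraries. Its log2 difference was 3.39 ± 0.48 (SE, limma, adjusted p = 0.00187), and 1.13 and 5.60 with pseudocounts of 1 and 0.01 FPKM. An antisense gene, SLC8A1-AS1, covers 9.15% of its exonic bases and was listed at 0 in every library but resistant 0, where it stood at 7.70 FPKM. Of the coding genes beside SLC8A2, MEIS3 averaged 0.234 and 8.67 FPKM and was upregulated (limma, adjusted p = 0.00122), and KPTN averaged 6.81 and 13.1 FPKM and was upregulated too (limma, adjusted p = 0.0210). The third exchanger, SLC8A3, known from skeletal muscle and brain, reached at most 0.0725 FPKM.

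The SLC24 carriers, which export calcium with potassium in exchange for sodium, were low in both groups. SLC24A1, known from rod photoreceptors, was the only one tested, with 5.92, 8.58 and 4.55 FPKM in the parental and 6.05, 3.30 and 1.79 FPKM in resistant libraries. The groups overlapped and the difference did not pass the test (log2 difference -0.87, interval -1.98 to 0.24, limma, adjusted p = 0.172). SLC24A4 was listed at 0, 0.00611 and 0 FPKM in parental and at 0.102, 0.0900 and 0.0182 FPKM in resistant libraries, under the level at which genes were tested. SLC24A2 and SLC24A3 also stayed under that level, and SLC24A5 was listed at 0 in all libraries.

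In the SLC9 family, 7 of 9 carriers were tested and all 7 were called, 1 upregulated and 6 downregulated. Over all genes tested 44.4% were called, and over protein-coding genes 55.7%. SLC9A2, a sodium proton exchanger of the apical membrane of epithelia (chr2:102619553-102711355), stood at 13.5, 14.6 and 14.6 FPKM in the parental and at 1.33, 0.777 and 0.718 FPKM in resistant libraries. It had the largest decrease of the carriers tested, with a log2 difference of -3.83 ± 0.25 (SE, limma, adjusted p = 8.1e-05). Its coding neighbour MFSD9, 3275 bases away, was upregulated from 6.996 to 11.3 FPKM (limma, adjusted p = 0.0302). IL18R1, the nearest tested coding gene on the other side, 220776 bases away, was downregulated from 0.996 to 0.129 FPKM (limma, adjusted p = 0.0327).

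Exchangers of inner compartments were lower as well. SLC9A7 of the trans-Golgi network averaged 18.1 and 6.52 FPKM (log2 difference -1.47, limma, adjusted p = 0.000561). SLC9A9, of late recycling endosomes (chr3:143265222-143848485), stood at 0.739, 1.10 and 1.18 FPKM in the parental and at 0.281, 0.174 and 0.389 FPKM in resistant libraries. The groups did not overlap, with a log2 difference of -1.55 ± 0.39 (SE, limma, adjusted p = 0.0180). The call of SLC9A9 was lost without parental replicate 1 (adjusted p = 0.0503) or parental replicate 2 (adjusted p = 0.0608, both limma). SLC9A8 of the Golgi stack averaged 6.96 and 4.55 FPKM (log2 difference -0.60, limma, adjusted p = 0.0237), and its call was lost without parental replicate 1 (adjusted p = 0.0545), parental replicate 2 (0.0686), resistant replicate 1 (0.0695) or resistant replicate 2 (0.0657).

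SLC9A5, an exchanger known from brain (chr16:67237683-67272191), stood at 2.46, 2.58 and 3.70 FPKM in the parental and at 0.946, 0.104 and 0.330 FPKM in resistant libraries. It was downregulated with a log2 difference of -2.72 ± 0.61 (SE, limma, adjusted p = 0.0120), and on the log2 scale its resistant values spread more widely than its parental ones. FHOD1 on the opposite strand shares 10.5% of its exonic bases and stood at 17.7 to 30.2 FPKM in parental and 5.50 to 6.70 FPKM in resistant libraries. With a pseudocount of 1 FPKM the log2 difference was -1.45 for SLC9A5 and -0.64 for SLC9A9, and both passed the test. SLC9A3 and SLC9A4, exchangers of kidney and gut, reached no more than 0.0606 and 0.124 FPKM.

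**Figure D3:**
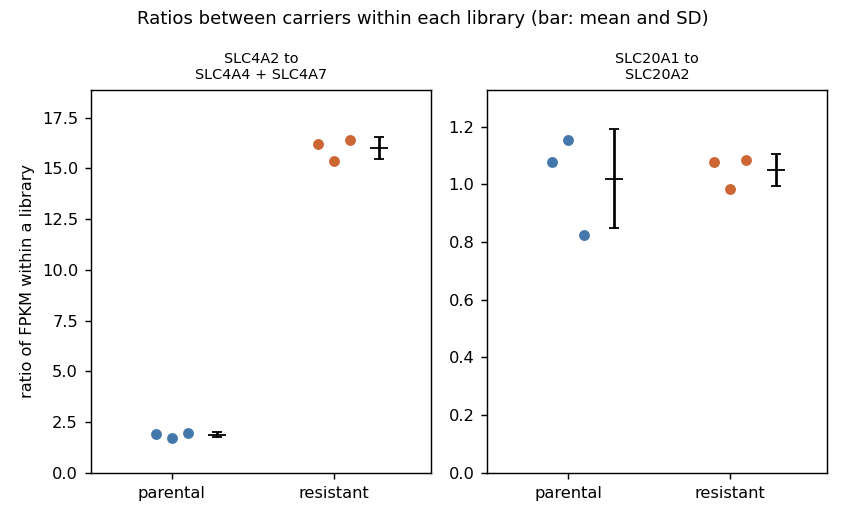
Ratios of FPKM between carriers within each library, 1 point per library, with the mean and SD (n = 3) at the side of each group; each panel has its own axis from 0. The ratio of SLC4A2 to SLC4A4 and SLC4A7 was 1.73 to 1.98 in parental and 15.4 to 16.4 in resistant libraries, and the ratio of SLC20A1 to SLC20A2 overlapped between the groups.

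The SLC12 family brings chloride into the cell with sodium and potassium or takes it out with potassium. Of 9 members 7 were tested, with 3 upregulated, 2 downregulated and 2 that did not pass the test. This was 71.4% called, beside 44.4% of all genes and 55.7% of protein-coding genes. SLC12A5, the potassium chloride cotransporter of neurons (KCC2; chr20:46021690-46060150), was listed at 0.122, 0.117 and 0 FPKM in parental libraries and at 4.18, 5.55 and 4.89 FPKM in resistant libraries. Its log2 difference was 4.87 ± 0.41 (SE, limma, adjusted p = 0.000221). Pseudocounts of 1 and 0.01 FPKM in place of 0.1 gave log2 differences of 2.44 and 6.46, since the parental values lie near the pseudocount, and SLC12A5 passed the test in both. A lncRNA gene at the same locus was listed at 0 in every parental library and at 2.26, 1.596 and 2.52 FPKM in resistant libraries. NCOA5, the coding gene 841 bases away, averaged 13.1 and 12.8 FPKM and did not pass the test (limma, adjusted p = 0.884). MMP9, the coding gene on the other side, 5129 bases away, averaged 0.0476 and 0.363 FPKM and was upregulated (limma, adjusted p = 0.0274).

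SLC12A4, the potassium chloride cotransporter found in most cells (KCC1; chr16:67943474-67969601), stood at 0.794, 2.74 and 0.644 FPKM in the parental and at 16.2, 13.0 and 12.8 FPKM in resistant libraries. No values overlapped, and the log2 difference was 3.50 ± 0.51 (SE, limma, adjusted p = 0.00199). LCAT, which overlaps 4.001% of its exonic bases on the same strand, was listed at 0.145, 0 and 0 FPKM and at 4.69, 5.20 and 3.77 FPKM. SLC12A7 (KCC4), the most abundant potassium chloride cotransporter of the parental cells, stood at 32.9, 42.8 and 32.8 FPKM there and at 23.1, 17.4 and 20.9 FPKM in resistant libraries, and was downregulated (log2 difference -0.82, limma, adjusted p = 0.00620). 

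SLC12A2, the sodium potassium chloride cotransporter that loads cells with chloride (NKCC1), stood at 9.05, 11.4 and 9.48 FPKM in the parental and at 15.4, 17.9 and 7.82 FPKM in resistant libraries. Resistant replicate 2 lay under all parental values and the other resistant libraries lay above them. The difference did not pass the test (log2 difference 0.38, interval -0.38 to 1.13, limma, adjusted p = 0.372), and without resistant replicate 2 it was 0.74 (limma, adjusted p = 0.0194). SLC12A8, less well known than its relatives, was the highest SLC12 carrier in the parental cells, at 42.8, 38.9 and 40.8 FPKM, and stood at 18.4, 21.5 and 22.6 FPKM in resistant libraries. It was downregulated by just under 2-fold (log2 difference -0.97, limma, adjusted p = 0.000557). SLC12A9 averaged 20.3 and 27.4 FPKM with a log2 difference of 0.44 at the edge of the threshold (limma, adjusted p = 0.0456), and it lost its call without any 1 of the libraries but parental replicate 1 (adjusted p = 0.0788 to 0.136). The kidney carriers SLC12A1 and SLC12A3 were not tested, with SLC12A1 above 0 only in resistant replicate 0, at 0.255 FPKM, and SLC12A3 listed at 0 throughout.

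**Figure D4:**
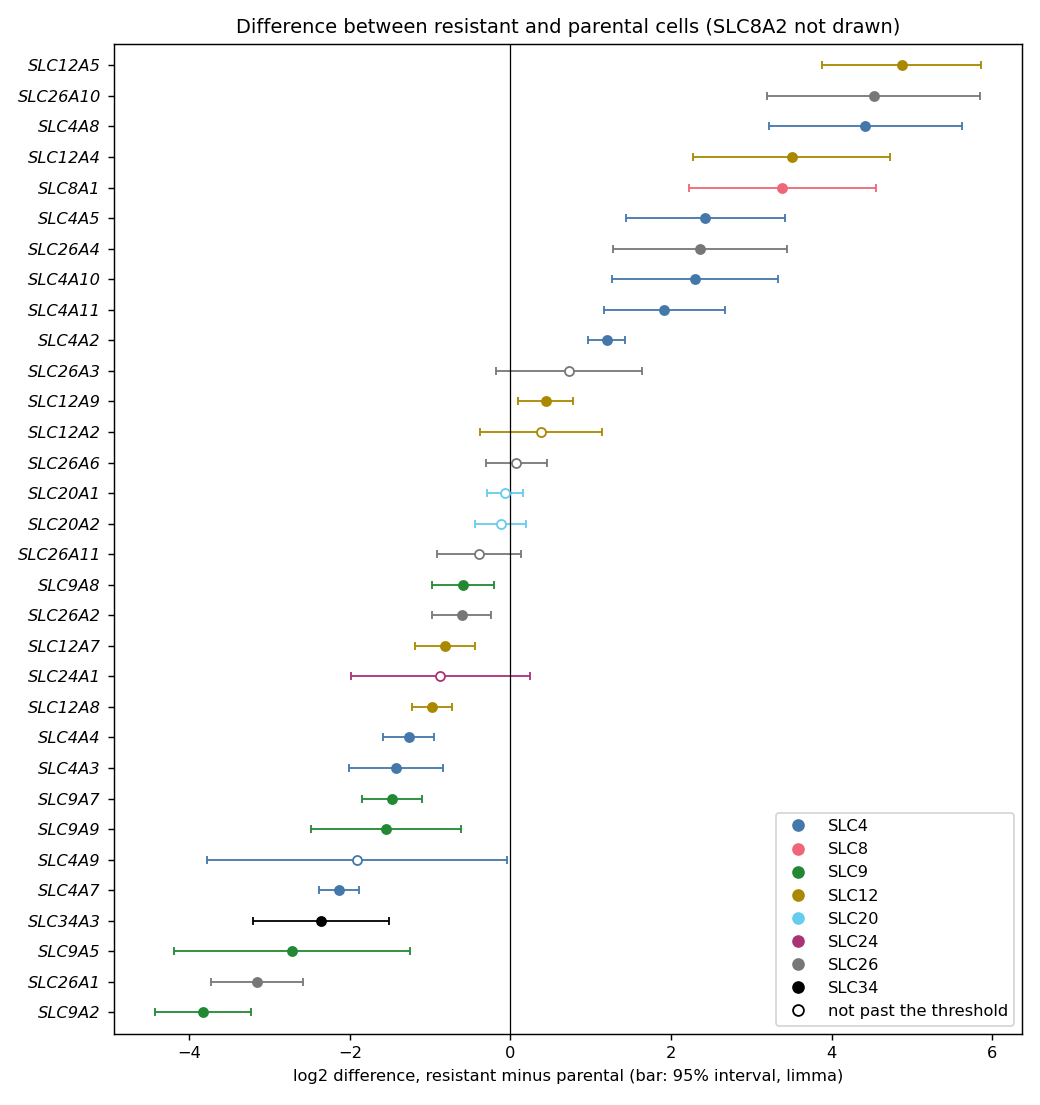
Log2 difference of the tested carriers shown in the plot of levels, resistant minus parental, with its 95% interval from limma on log2(FPKM + 0.1); colour gives the family and open points did not pass the adjusted threshold. SLC8A2, listed at 0 in the parental libraries, is not drawn. Differences ran from -3.83 for SLC9A2 to 4.87 for SLC12A5, and all SLC9 points drawn lay under 0.

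Among the SLC26 anion exchangers, 7 of 11 were tested, with 2 upregulated, 2 downregulated and 3 that did not pass the test. The share called, 57.1%, was near the 55.7% of protein-coding genes and above the 44.4% of all genes. SLC26A1, a sulfate and oxalate exchanger known from liver and kidney (chr4:979073-993440), stood at 10.4, 8.07 and 8.46 FPKM in the parental and at 0.686, 1.13 and 0.961 FPKM in resistant libraries. The groups lay far apart, with a log2 difference of -3.16 ± 0.24 (SE, limma, adjusted p = 0.000143). IDUA, which covers 12.4% of its exonic bases on the opposite strand, stood at 10.7 to 13.0 FPKM and at 8.26 to 8.64 FPKM. FGFRL1, 16496 bases away, was downregulated from 54.4 to 8.37 FPKM (limma, adjusted p = 5.74e-05), and TMEM175 on the other side was upregulated from 14.9 to 20.5 FPKM (limma, adjusted p = 0.0257).

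SLC26A2, the sulfate carrier needed for cartilage, averaged 7.49 and 4.92 FPKM and was downregulated by less than 2-fold (log2 difference -0.61, limma, adjusted p = 0.0186). It lost its call without parental replicate 0 (adjusted p = 0.0542), resistant replicate 0 (0.0519) or resistant replicate 1 (0.0554). SLC26A4, pendrin, an anion exchanger of thyroid and inner ear, averaged 0.113 and 1.04 FPKM and was upregulated (log2 difference 2.36, limma, adjusted p = 0.00609), while SLC26A4-AS1, which shares 7.12% of its exonic bases, ran the other way, from 1.58 to 2.78 FPKM in parental to 0.101 to 0.278 FPKM in resistant libraries. SLC26A10, which GENCODE v44 lists as a transcribed pseudogene (chr12:57619527-57626151), was listed at 0.0240, 0 and 0.251 FPKM in parental and at 4.81, 2.99 and 3.39 FPKM in resistant libraries. Its log2 difference was 4.52 ± 0.55 (SE, limma, adjusted p = 0.000954), but B4GALNT1 on the opposite strand shares 49.95% of its exonic bases and another gene on the same strand shares 43.7%, so its reads may be theirs and the value is uncertain. With pseudocounts of 1 and 0.01 FPKM the log2 difference was 2.10 and 6.36 for SLC26A10 and 0.85 and 3.07 for SLC26A4, and both passed the test.

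SLC26A6, which exchanges chloride for oxalate or bicarbonate, was the highest SLC26 carrier, at 25.3 ± 5.45 and 26.2 ± 1.07 FPKM (SD, n = 3), and did not pass the test (log2 difference 0.07, interval -0.31 to 0.45, limma, adjusted p = 0.735). SLC26A11, an anion carrier found in many tissues, averaged 15.7 and 11.8 FPKM and SLC26A3, the chloride bicarbonate exchanger of the colon, averaged 0.735 and 1.30 FPKM. Neither passed the test, and both overlapped between the groups (limma, adjusted p = 0.188 and 0.162). SLC26A5, SLC26A7, SLC26A8 and SLC26A9 were not tested, and SLC26A5, the motor protein of outer hair cells, was the highest of them at no more than 0.259 FPKM.

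Neither phosphate carrier of the SLC20 family passed the test. SLC20A1 stood at 27.1, 31.3 and 27.2 FPKM in the parental and at 25.8, 28.1 and 27.8 FPKM in resistant libraries (log2 difference -0.07, interval -0.29 to 0.16, limma, adjusted p = 0.596). SLC20A2 stood at 25.1, 27.1 and 33.0 FPKM and at 23.9, 28.5 and 25.6 FPKM (log2 difference -0.12, interval -0.44 to 0.19, limma, adjusted p = 0.482). Both overlapped between the groups, and the intervals leave out differences of 2-fold in either direction. The ratio of SLC20A1 to SLC20A2 was 1.08, 1.155 and 0.825 in the parental and 1.08, 0.984 and 1.08 in the resistant libraries (exact two-sided permutation p = 0.8, also after adjustment over the 4 ratios). SLC34A3, a sodium phosphate cotransporter of the kidney (chr9:137230757-137236555), was low in the parental cells, at 2.30, 2.21 and 1.47 FPKM, and lower at 0.340, 0.389 and 0.2003 FPKM in resistant libraries. It was downregulated without overlap, with a log2 difference of -2.36 ± 0.35 (SE, limma, adjusted p = 0.00221), which was -1.18 with a pseudocount of 1 FPKM. SLC34A1 of the kidney reached at most 0.201 FPKM and SLC34A2 of lung and gut was listed at 0 in all libraries.

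The genes that work with the carriers were described from lists chosen for their known roles. In these lists WNK4, CA10, CA14, ATP2B3 and ALPL had parental means under 0.1 FPKM and entered the test only through the resistant libraries. All but CA14 were called higher, so the upregulated and called shares of their lists rest in part on this filter. The list of the WNK kinase pathway, which controls SLC12 carriers by phosphorylation, also held LRRC8A, a channel subunit. In it, 5 of 12 tested genes were upregulated and 5 downregulated, with a median log2 difference of -0.18. WNK4, KLHL2, KLHL3, CUL3 and LRRC8A were upregulated, and WNK1, WNK2, STK39, OXSR1 and CAB39L were downregulated. The share called was 83.3%, where it was 44.4% over all genes and 55.7% over protein-coding genes. STK39 (SPAK), the kinase that phosphorylates SLC12 carriers, averaged 143 ± 4.41 and 27.1 ± 1.76 FPKM (SD, n = 3; log2 difference -2.39, limma, adjusted p = 7.44e-06). WNK2, an upstream kinase, averaged 51.6 and 9.69 FPKM (log2 difference -2.40, limma, adjusted p = 4.47e-05). LRRC8A, the essential subunit of the volume-regulated anion channel, averaged 12.2 ± 0.794 and 134 ± 5.15 FPKM (SD, n = 3; log2 difference 3.44, limma, adjusted p = 3.45e-06). The kinase and the channel subunit thus lay apart from the parental values in opposite directions.

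Of the carbonic anhydrases, which interconvert carbon dioxide and bicarbonate, 3 of 11 tested genes were upregulated and 2 downregulated, a share of 45.5% called, near the 44.4% of all genes and under the 55.7% of protein-coding genes, with a median of -0.06. The upregulated genes, CA8, CA10 and CA11, are the members known to lack enzyme activity, and CA10 was listed at 0 in all parental libraries. CA9 averaged 0.115 and 0.493 FPKM and CA14 0.0878 and 0.232 FPKM. Both were higher without overlap but did not pass the test (limma, adjusted p = 0.0601 and 0.169). CA4 was lower without overlap and did not pass it either (limma, adjusted p = 0.0555). CA11 averaged 6.06 and 92.1 FPKM (log2 difference 3.91, limma, adjusted p = 1.73e-05), and CA8 averaged 0.655 and 30.8 FPKM (log2 difference 5.70, limma, adjusted p = 0.000412). CA13, an active cytosolic enzyme, averaged 15.5 and 1.90 FPKM (log2 difference -2.99, limma, adjusted p = 0.000126).

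Of the proteins that bind or regulate the sodium proton exchangers and the bicarbonate cotransporters, 4 of 13 tested genes were upregulated and 7 downregulated, with a median of -0.57. The upregulated share was 30.8% and the downregulated share 53.8%, against 22.1% and 22.3% of all genes, and 84.6% were called, against 55.7% of protein-coding genes. SLC9A3R1 (NHERF1), a scaffold that anchors exchangers at the apical membrane, averaged 94.8 ± 20.9 and 9.30 ± 0.616 FPKM (SD, n = 3; log2 difference -3.32, limma, adjusted p = 2.90e-05). Its relative SLC9A3R2 averaged 73.9 and 30.1 FPKM (log2 difference -1.29, limma, adjusted p = 6.26e-05), and the kinase SGK3 averaged 28.04 and 4.68 FPKM (log2 difference -2.59, limma, adjusted p = 0.000174). Those 3, named for the smallest adjusted p of the list, were all lower in the resistant cells. The 4 upregulated genes were EZR, which averaged 23.5 and 55.5 FPKM, AHCYL2, SCAMP5 and PDZD3.

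The sodium potassium pump, which builds the sodium gradient these carriers use, had 3 of 9 tested genes upregulated and 2 downregulated, with a median of 0.37. That is 55.6% called, against 44.4% of all genes and 55.7% of protein-coding genes. ATP1B3, a beta subunit, averaged 146 and 33.8 FPKM (log2 difference -2.10, limma, adjusted p = 3.75e-05). Calcium pumps, the other route of calcium removal beside SLC8 and SLC24, had 4 of 8 tested genes upregulated and 2 downregulated, with a median of 0.37, so that 75% were called beside 44.4% of all and 55.7% of protein-coding genes. ATP2C2, a secretory pathway pump, averaged 36.2 and 1.07 FPKM (log2 difference -4.94, limma, adjusted p = 1.41e-05), ATP2B4, a plasma membrane pump, averaged 26.1 and 4.88 FPKM (log2 difference -2.42, limma, adjusted p = 0.000303), and ATP2A1, a pump of muscle reticulum, averaged 0.852 and 3.13 FPKM (log2 difference 1.66, limma, adjusted p = 0.0150). Of the other plasma membrane pumps, ATP2B1 and ATP2B3 were upregulated and ATP2B2 was not tested.

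In the list of phosphate export and its hormonal control, 4 of 9 tested genes were upregulated and 3 downregulated, with a median of 0.30. Here 77.8% were called, beside 44.4% of all genes and 55.7% of protein-coding genes. STC2, a secreted glycoprotein, averaged 48.8 and 9.41 FPKM (log2 difference -2.36, limma, adjusted p = 2.42e-05), and ANKH, which is linked to the release of pyrophosphate, averaged 71.5 and 22.2 FPKM (log2 difference -1.69, limma, adjusted p = 0.000264). ALPL, the phosphatase that frees phosphate from pyrophosphate, averaged 0.0799 and 6.60 FPKM (log2 difference 5.38, limma, adjusted p = 0.000243). Its parental mean lay under the pseudocount of 0.1 FPKM, so the size of this difference depends on the pseudocount. Of 5 relatives named like the carriers but outside the rule, SLC8B1, SLC9B1, SLC9B2, SLC9C1 and SLC9C2, 3 were tested and none of these passed the test (limma, adjusted p = 0.217, 0.122 and 0.876 for SLC8B1, SLC9B1 and SLC9B2).

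**Figure D5:**
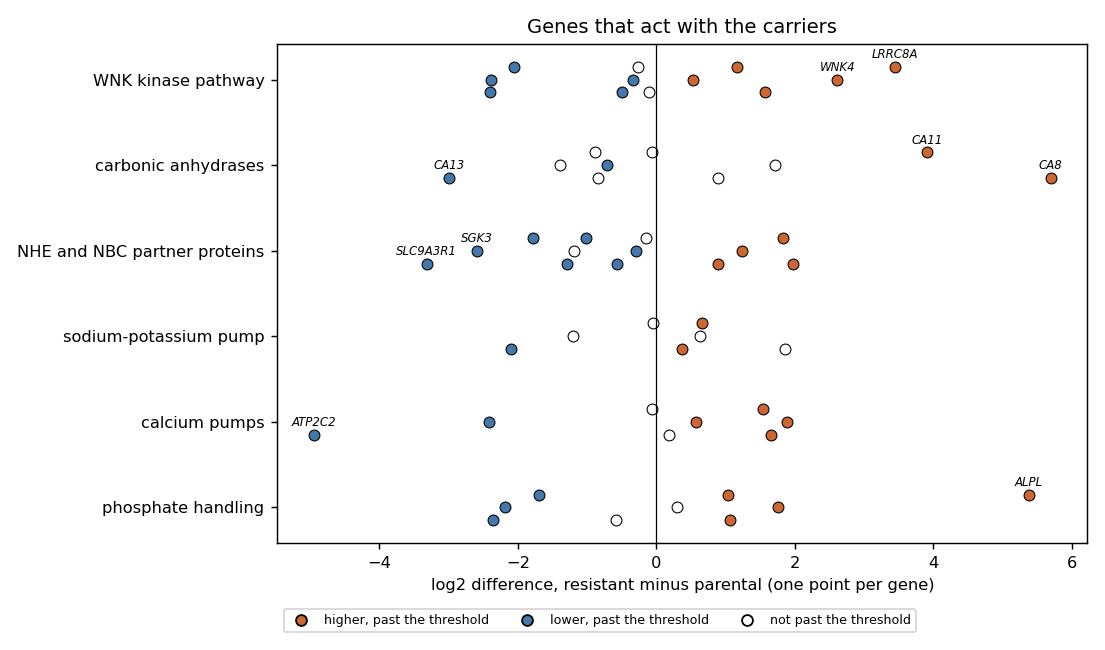
Log2 difference of tested genes of the 6 lists that act with the carriers, resistant minus parental, 1 point per gene, coloured by call; CA10, listed at 0 in the parental libraries, is not drawn. Every list held points past the threshold on both sides of 0, with LRRC8A at 3.44 and SLC9A3R1 at -3.32.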

How the data were processed

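RNA from 3 parental and 3 resistant libraries was sequenced as single-end reads. The authors trimmed and aligned the reads with TrimGalore and STAR to GRCh38 and deposited FPKM values from Cufflinks 2.2.1 on GENCODE v25. The labels' processing notes also list Trimmomatic 0.27, FastQC 0.10.1 and mm10, a mouse build, while the table holds human gene identifiers. The labels name both an unstranded and a stranded kit, and the strand setting used for counting is not given in the sources used here, so reads of overlapping genes on opposite strands cannot be told apart. No pair of libraries held identical values.

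Genes averaging 0.1 FPKM or more were fitted with limma 3.58.1 under R 4.3.3 (lmFit, eBayes with a variance trend) on log2(FPKM + 0.1), two-sided, with Benjamini-Hochberg adjustment over all genes tested and a threshold of 0.05. This scale understates the change of low genes. Ratios were compared with exact two-sided permutation tests over libraries (scipy 1.17.1). Positions, gene types and overlaps came from GENCODE v44, which held all 52 carriers, and promoters from RefSeq.

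Named in full were the 6 largest increases and the 6 largest decreases among called carriers at 1 FPKM or more in either group without overlap, the most highly expressed called carrier of each family, SLC12A5 and SLC24A4, the genes of the ratios, called carriers listed at 0 in a group, and the 3 genes of each partner list with the smallest adjusted p. Neighbouring and overlapping genes, RMRP, RPPH1 and the marker genes given with values were added after their values were seen. The members, lists and ratios were chosen with earlier results of these data known. Other settings tried were 2 pseudocounts, no or a stricter filter, 3 scalings, no variance trend, a replicate block, a stricter threshold and each library left out. Some genes covered by these choices, and 2 of the 4 ratios, are not reported or drawn here.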

Additional observations from a re-analysis of the deposited data

How the results depend on the processing

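The direction of each of the 27 called carriers was the same under all alternatives in which it was tested. SLC20A1 and SLC26A6, which did not pass the test, had differences on both sides of 0, from -0.10 to 0.01 and from -0.05 to 0.24. The 27 calls were the same 27 under pseudocounts of 1 and 0.01 FPKM, quantile normalization, scaling without short non-coding RNA and a shift to the same median. SLC12A9 lost its call without a filter on low values and without the variance trend (limma, adjusted p = 0.0579 and 0.0937). A mean of at least 1 FPKM left 32 carriers tested and 23 called, since SLC4A5, SLC8A1, SLC9A9 and SLC26A4 were no longer tested. An adjusted p below 0.01 left 11 upregulated and 10 downregulated. With each library left out in turn, 24 or 25 carriers were called.

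The median log2 difference of the tested carriers was -0.26 and moved to 0.12 without a filter on low values, when 48 carriers were tested, and to -0.42 with a mean of at least 1 FPKM. Leaving out each library in turn gave -0.26 to -0.10, the latter without parental replicate 2. This median is therefore a weak summary of carriers that differed in both directions.

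Libraries with the same replicate number showed no sign of deviating together (correlations 0.00802, 0.0165 and -0.00301). These correlations ran over all genes tested, low ones included, and so cannot decide whether the numbers pair the libraries. With a replicate block, 24 carriers were called, 12 upregulated and 12 downregulated, without SLC9A8, SLC12A9 and SLC26A2 (limma, adjusted p = 0.0650, 0.0953 and 0.0502), and 9463 genes in all. Some deviations correlated more across numbers, as those of parental replicate 2 did with resistant replicate 0 (0.0201). That value was near 0 as well.

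The table holds no counts, so counting error could not be given, and carriers near 0.1 FPKM rest on few reads.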
